A study of Homo sapiens with 21 samples.

Results

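Cyclic nucleotide phosphodiesterases are the enzymes that break down cAMP and cGMP, and the genes described here are 10 members of that family named as enzymes that caffeine inhibits: PDE1A, PDE3A, PDE3B, PDE4A, PDE4B, PDE4C, PDE4D, PDE5A, PDE7A and PDE8A. They were found by gene symbol from the Ensembl identifiers of the count table. Of the 10, 9 were found among 37637 features and all 9 passed the filter on low counts. PDE4B was not analysed here. The cells were HepG2, an established human hepatocellular carcinoma line, kept for 24 h in serum-free DMEM. The 6 treated groups held caffeine at 0.01, 0.1, 1, 10, 100 or 1000 µM and the control group held none. Each of the 7 groups had 3 biological replicates, giving 21 libraries made from poly(dT)-purified RNA, and no other agent or genetic change is named.

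Cells make cAMP with adenylyl cyclases and cGMP with guanylyl cyclases, and phosphodiesterases end both signals by hydrolysis. The families differ in substrate. PDE4, PDE7 and PDE8 enzymes act on cAMP, PDE5A acts on cGMP, and PDE1 and PDE3 enzymes act on both. In hepatocytes cAMP carries the glucagon signal, acting through protein kinase A and the EPAC exchange factors on the genes of glucose output. Caffeine is a methylxanthine that blocks adenosine receptors and, at higher concentrations, many phosphodiesterases. PDE8 enzymes are known for low sensitivity to a related methylxanthine inhibitor. The comparisons ask how the transcripts of these enzymes changed with caffeine dose.

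The libraries held between 23502519 and 44815552 counts. By their 13 mitochondrial mRNAs they fell into 3 sets, which are not the study's groups. Set A held all control, 0.01 µM and 0.1 µM libraries and 1 µM replicates 1 and 2. Set B held 1 µM replicate 3, all 10 µM libraries, 100 µM replicate 2 and 1000 µM replicates 1 and 2. Set C held 100 µM replicates 1 and 3 and 1000 µM replicate 3. The share of counts from all mitochondrially encoded genes was lowest in set B (4.72% to 4.94%). It was 9.95% to 14.2% in set A and 11.8% to 12.8% in set C. No control library was outside set A, so the calls of the 9 genes at 100 and 1000 µM are also counted in a fit with the set as a term. Values not named as from that fit or from within a set do not take the set into account. A further comparison stays within set B, with 2 libraries at 1000 µM against 3 at 10 µM. Of 8 hepatocyte markers all were detected, with a summed level of 30562 to 38720 CPM (TMM-scaled CPM, counts relative to library size) in control and 25896 to 27128 CPM at 1000 µM. Of 10 markers of other cell types 9 were in the table, and 6 of these never exceeded 10 counts. Their summed level was 44.85 to 59.43 CPM in control and 37.45 to 70.7 CPM at 1000 µM. In bulk samples fewer cells of a type and less RNA per cell cannot be told apart.

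Without the set term, phosphodiesterase transcripts were called in both directions at each of the 2 highest caffeine doses. With the set term, both directions were called only at 1000 µM. PDE4C and PDE1A fell at 100 and at 1000 µM, PDE7A and PDE3A fell at 1000 µM, and PDE8A and PDE3B rose at 1000 µM. PDE4A rose at 100 µM, and PDE4D and PDE5A passed the test at no dose. The rises of PDE3B and PDE4A were not called once the library set was a term in the fit (adjusted p = 0.172 and 0.113). Calls rest on edgeR's quasi-likelihood F-test, 2-sided, at an adjusted p under 0.05 over 17951 features. At 100 µM, 3 of the 9 genes were called, 1 higher and 2 lower, in a comparison that called 46.6% of all features, 23.6% higher and 22.9% lower. At 1000 µM, 6 of 9 were called, 2 higher and 4 lower, beside 57.6% of all features, 28.5% higher and 29.1% lower. PDE1A passed the filter on low counts only through libraries at 0 to 10 µM, where it was high, and without it the counts were 2 of 8 at 100 µM and 5 of 8 at 1000 µM. Without the set term, the shares called lay near the background at 1000 µM and below it at 100 µM. The median log2 fold change of the 9 genes was -0.12 at 100 µM and -0.10 at 1000 µM, and that of all features was -0.01 at both doses.

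In the fit of all libraries without the set term, no gene of the 9 was called at 0.01, 0.1, 1 or 10 µM. Of all features, 0.0279%, 0%, 0.106% and 14.8% were called at these doses. At an unadjusted p under 0.05 the counts were 3, 3, 2 and 2 of 9, beside 15%, 9.48%, 15.7% and 30.8% of all features at that threshold. DESeq2 with adjustment also called none of the 9 at these doses. With only control and 10 µM libraries in the edgeR fit, PDE1A was called at 10 µM. In 3 of the 9 genes, PDE3B, PDE4D and PDE5A, all 9 libraries at 0.01, 0.1 and 1 µM were below all 3 controls, a pattern noticed in the values and shared by 3.6% of all features. The 6 doses tested jointly separated 8 of the 9 genes, the exception being PDE5A, in a test that called 73.6% of all features. The 8 include PDE1A, which passed the filter only through libraries at 0 to 10 µM. The joint call of PDE3A was lost with no filter and without 1000 µM replicate 1, and that of PDE4A without any 1 of the 3 libraries at 100 µM. PDE5A was called without 100 µM replicate 2. Adding the library set to the fit also left 8 called in the joint test, PDE1A among them, beside 59.8% of all features. That fit called 2 genes at 100 µM, both lower, beside 17.3% of features, 9.14% higher and 8.21% lower. At 1000 µM it called 5 genes, 1 higher and 4 lower, beside 38% of features, 18.2% higher and 19.8% lower. Without PDE1A these counts were 1 of 8 at 100 µM, and 4 of 8 at 1000 µM, 1 higher and 3 lower. At 0.01 µM it called PDE3B (log2 fold change -0.31, adjusted p = 0.0499), beside 3.02% of features.

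**Figure D1:**
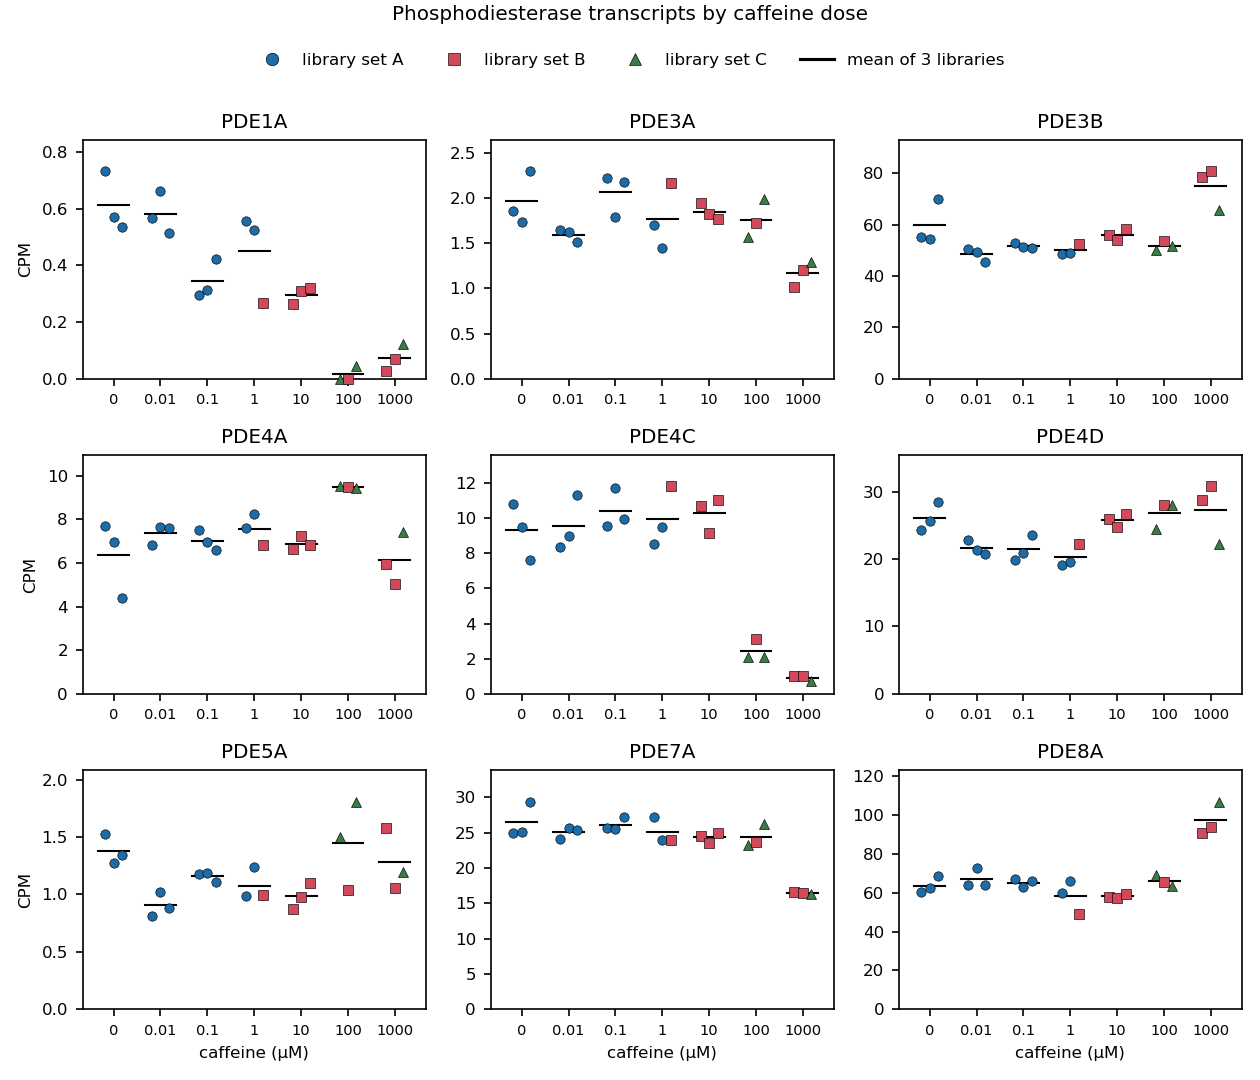
Level of each phosphodiesterase in every library, in CPM, against caffeine dose in µM (evenly spaced doses, linear CPM axis from 0). Symbols mark the library set and bars the mean of 3 libraries. PDE4C is between 7.63 and 11.8 CPM in the 15 libraries at 0 to 10 µM and at or below 3.11 CPM in the 6 above, whereas PDE8A is highest at 1000 µM.

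The PDE4 enzymes are cAMP-specific and are held at particular sites in the cell by their long amino-terminal regions. PDE4C lies on chromosome 19 at 18208652 to 18248200 (GRCh38, minus strand). In control it stood at 10.8, 9.48 and 7.63 CPM, from 355, 365 and 199 counts. At 100 µM the libraries held 2.10, 3.11 and 2.07 CPM, and at 1000 µM 1.02, 0.992 and 0.746 CPM. All 6 libraries of these doses were below every other library, and the 3 at 1000 µM were below the 3 at 100 µM. Over the 15 libraries at 0 to 10 µM the lowest, median and highest levels were 7.63, 9.55 and 11.8 CPM.

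The mean of PDE4C fell from 9.32 ± 1.61 CPM (SD, n = 3) in control to 2.43 ± 0.593 CPM at 100 µM and 0.920 ± 0.151 CPM at 1000 µM, a 10.1-fold difference at the highest dose. The log2 fold change was -1.91 (SE 0.185, edgeR adjusted p = 1.28e-07) at 100 µM and -3.32 (SE 0.208, edgeR adjusted p = 1.13e-10) at 1000 µM. The 1000 µM level was also lower than the 100 µM level, by a log2 fold change of -1.41 (edgeR adjusted p = 3.75e-05). With the set term the values were -1.997 at 100 µM and -3.57 at 1000 µM, both called. Within set B, 1000 µM against 10 µM gave -3.37 (edgeR adjusted p = 1.85e-09).

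PDE4D, the longest of these genes, lies on chromosome 5 at 58969038 to 60522120 (minus strand). Its control libraries stood at 24.3, 25.6 and 28.5 CPM and its 1000 µM libraries at 28.7, 30.8 and 22.3 CPM. The ranges overlapped, and the log2 fold change at 1000 µM was 0.06 with a 95% interval of -0.17 to 0.29. It was -0.07 with the set term (edgeR adjusted p = 0.783). The joint test called PDE4D (edgeR adjusted p = 0.00477). Its lowest group means were at 0.01, 0.1 and 1 µM, with 21.6 ± 1.18, 21.4 ± 1.93 and 20.4 ± 1.73 CPM (SD, n = 3). Within set B its value was 0.18 (edgeR adjusted p = 0.0289), a call lost with DESeq2 (adjusted p = 0.052).

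PDE4A lies on chromosome 19 at 10416773 to 10469631 (plus strand). Its control libraries stood at 7.70, 6.98 and 4.41 CPM, its 100 µM libraries at 9.52, 9.51 and 9.44 CPM and its 1000 µM libraries at 5.94, 5.03 and 7.42 CPM. The 3 libraries at 100 µM were above all others, while the 1000 µM libraries overlapped the controls. The log2 fold change at 100 µM was 0.57 (SE 0.159, edgeR adjusted p = 0.00653), and with the set term it was 0.67 and no longer called (adjusted p = 0.113). At 1000 µM it was -0.06 with a 95% interval of -0.40 to 0.27. The level at 1000 µM was lower than at 100 µM by a log2 fold change of -0.63 (edgeR adjusted p = 0.00333).

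The balance among the PDE4 genes shifted within each library, where scaling between libraries plays no part. The ratio of PDE4C to PDE4D counts ran from 0.267 to 0.560 over the 15 libraries at 0 to 10 µM. It was 0.0856, 0.111 and 0.0739 at 100 µM and 0.0356, 0.0322 and 0.0335 at 1000 µM. PDE4C made up 22.2% ± 3.26 (SD, n = 3) of the summed PDE4A, PDE4C and PDE4D counts in control, 6.23% ± 1.25 at 100 µM and 2.67% ± 0.208 at 1000 µM. The 3 dose groups did not overlap in this share. It is a share of counts, not length-scaled, and leaves PDE4B out.

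**Figure D2:**
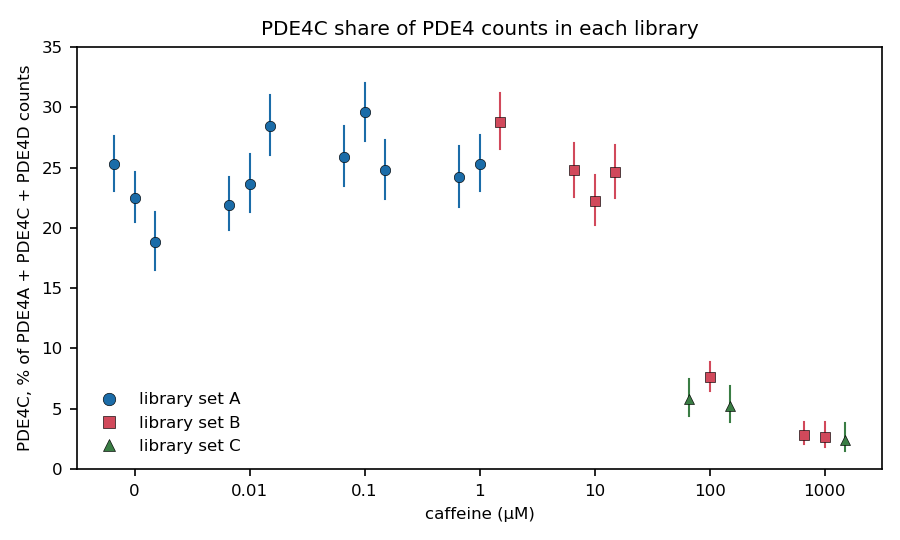
Share of PDE4C in the summed counts of PDE4A, PDE4C and PDE4D, in percent, for each library by caffeine dose in µM. Symbols mark the library set and vertical lines the exact 95% binomial interval, which covers counting error only. The share is 22.2% on average in control and 2.67% at 1000 µM.

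Promoter sequence is shown for the PDE4 gene that fell most and for the PDE4 gene that holds a full cAMP response element, the site TGACGTCA bound by CREB. The windows run from 250 bases before to 50 after a RefSeq transcript start (GRCh38.p14), written 5′ to 3′ on the gene's strand, with matches to the core TGACG on either strand (TGACG or CGTCA) in capitals. The matches inside TGACGTCA overlap.
PDE4A chr19:10416523-10416822, plus strand: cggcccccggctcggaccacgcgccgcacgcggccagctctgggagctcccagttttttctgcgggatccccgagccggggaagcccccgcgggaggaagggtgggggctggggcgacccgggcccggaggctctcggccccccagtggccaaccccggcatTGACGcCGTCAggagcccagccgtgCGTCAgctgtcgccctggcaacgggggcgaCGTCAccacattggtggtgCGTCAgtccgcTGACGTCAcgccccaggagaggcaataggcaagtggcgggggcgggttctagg
PDE4C chr19:18248151-18248450, minus strand: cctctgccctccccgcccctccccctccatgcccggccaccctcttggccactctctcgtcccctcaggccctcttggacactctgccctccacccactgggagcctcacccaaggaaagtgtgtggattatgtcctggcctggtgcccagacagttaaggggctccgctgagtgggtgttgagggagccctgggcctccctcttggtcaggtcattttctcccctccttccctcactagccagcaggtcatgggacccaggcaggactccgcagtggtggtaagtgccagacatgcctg
PDE4C chr19:18224444-18224743, minus strand: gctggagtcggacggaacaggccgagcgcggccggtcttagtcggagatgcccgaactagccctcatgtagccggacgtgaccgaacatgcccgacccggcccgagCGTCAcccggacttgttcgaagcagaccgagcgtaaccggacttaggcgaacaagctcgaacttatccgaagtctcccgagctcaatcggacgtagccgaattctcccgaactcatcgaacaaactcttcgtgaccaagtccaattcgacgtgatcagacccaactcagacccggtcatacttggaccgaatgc
These windows were chosen for their matches or their place in the gene: of the 5 PDE4A windows 4 held no TGACG, and of the 4 PDE4C windows 3 held none. The PDE4A window shown held 7 matches, counting both strands, and 1 full TGACGTCA. The first PDE4C window is at the start of the annotated gene and held none, and the second, at an internal start, held 1. The RefSeq promoter table used here gave 37 windows for 8 of the 10 genes, PDE3B and PDE7A not among them. TGACG was in 4 of the 37 (10.8%) and TGACGTCA in 1. Of all 35116 windows of this length, 24.6% held TGACG and 1.85% held TGACGTCA. A match is only a string of letters in this window, and counts per gene do not tell which start was used.

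PDE1A encodes a phosphodiesterase stimulated by calcium and calmodulin, and it lies on chromosome 2 at 182140036 to 182523192 (minus strand). It was the least abundant of the 9 genes. In control it had 24, 22 and 14 counts, at 100 µM 0, 0 and 1 count, and at 1000 µM 1, 2 and 3 counts. In CPM these were 0.733, 0.571 and 0.537 in control, 0, 0 and 0.0441 at 100 µM, and 0.0255, 0.0709 and 0.124 at 1000 µM. The 6 libraries at 100 and 1000 µM were below all 15 others. The libraries through which PDE1A passed the filter numbered 12, all at 0 to 10 µM. With no filter the fall was called at both doses (edgeR adjusted p = 9.34e-08 and 7.06e-06).

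The pooled PDE1A level was 59.3-fold lower at 100 µM (exact 95% interval 10.3 to 2383, counting error only) and 9.41-fold lower at 1000 µM (4.08 to 26.6). The fitted log2 fold changes were -5.43 (edgeR adjusted p = 1.71e-06) and -3.13 (edgeR adjusted p = 2.09e-05), and the first depends on the prior count. In the filtered fits PDE1A was tested only through libraries at 0 to 10 µM, where it was high. Without 100 µM replicate 3, which held the only count at that dose, the fitted value was -7.40. The log2 fold change between 1000 and 100 µM was 2.31 and not called (edgeR adjusted p = 0.0816), and with the set term it was 2.71 and called (edgeR adjusted p = 0.0402), from 6 counts against 1. With the set term both doses stayed called against control, at adjusted p = 0.000597 and 0.00641. At 10 µM PDE1A held 9, 12 and 11 counts, below all 3 controls in CPM, with a log2 fold change of -1.04 that missed the threshold (edgeR adjusted p = 0.0725). With only control and 10 µM libraries in the fit, PDE1A was called at that dose. The other library of set B at a low dose, 1 µM replicate 3, held 10 counts (0.268 CPM), and 1 µM replicates 1 and 2 of set A held 0.556 and 0.526 CPM. The 0.1 µM libraries, all of set A, were also low, at 0.296, 0.312 and 0.424 CPM. With the set term the log2 fold change of PDE1A was -0.04 at 10 µM (adjusted p = 1), -0.19 at 1 µM (adjusted p = 0.811) and -0.84 at 0.1 µM (adjusted p = 0.212). Within set B the log2 fold change from 10 to 1000 µM was -2.66 (edgeR adjusted p = 0.00266), and without 1000 µM replicate 1 it was -2.03 and not called (adjusted p = 0.0597). No 1000 µM library helped PDE1A pass the filter there. Without 10 µM replicate 2 or 3 PDE1A did not pass and had no value.

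PDE8A encodes a cAMP-specific enzyme of high affinity and lies on chromosome 15 at 84980440 to 85139145 (plus strand). It stood at 60.3, 62.3 and 68.5 CPM in control, 68.9, 65.5 and 63.5 CPM at 100 µM and 90.9, 93.9 and 107 CPM at 1000 µM. The 1000 µM libraries were above all 18 others, and the 100 µM libraries overlapped the controls. At 1000 µM the level was 1.53-fold that of control, a log2 fold change of 0.61 (SE 0.0952, edgeR adjusted p = 2.08e-05), and with the set term it was 0.93 (edgeR adjusted p = 2.78e-05). Within set B it was 0.65 (edgeR adjusted p = 2.02e-07).

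PDE7A encodes another cAMP-specific enzyme, and lies on chromosome 8 at 65717510 to 65842322 (minus strand). It moved the opposite way to PDE8A. Its control libraries stood at 25.0, 25.1 and 29.4 CPM, its 100 µM libraries at 23.3, 23.7 and 26.2 CPM and its 1000 µM libraries at 16.6, 16.5 and 16.3 CPM. The 1000 µM libraries were below all 18 others and differed little among themselves. The log2 fold change at 1000 µM was -0.68 (SE 0.0831, edgeR adjusted p = 9.49e-07), -0.59 with the set term and -0.57 within set B, all called.

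The PDE3 enzymes hydrolyse cAMP and are inhibited by cGMP, and PDE3B is the form that insulin activates in fat and liver cells. At 1000 µM PDE3A fell and PDE3B rose, but the rise was not called with the set term. PDE3A, on chromosome 12 at 20369245 to 20684381 (plus strand), stood at 1.86, 1.74 and 2.30 CPM in control and 1.02, 1.20 and 1.29 CPM at 1000 µM, with no overlap between these groups. Its log2 fold change was -0.75 (SE 0.181, edgeR adjusted p = 0.00154), and -1.26 with the set term (edgeR adjusted p = 0.00226). Against 100 µM it was -0.59 (edgeR adjusted p = 0.0126), a call lost without 100 µM replicate 3 (-0.51, adjusted p = 0.0535) or 1000 µM replicate 1 (-0.50, adjusted p = 0.0727). It was also lost with no filter (-0.62, adjusted p = 0.0533) and with only the groups compared in the fit (-0.60, adjusted p = 0.0676). Within set B it was -0.76 (edgeR adjusted p = 0.00611), and without 1000 µM replicate 1 -0.64 and not called (adjusted p = 0.0595).

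PDE3B, on chromosome 11 at 14643723 to 14872044 (plus strand), stood at 55.4, 54.5 and 69.9 CPM in control, 50.1, 53.8 and 51.7 CPM at 100 µM and 78.5, 80.9 and 65.9 CPM at 1000 µM. The library at 65.9 CPM, of set C, was below the highest control. The log2 fold change at 1000 µM was 0.33 (SE 0.0935, edgeR adjusted p = 0.00562). It was 0.27 with the set term (adjusted p = 0.172) and 0.33 with only control and 1000 µM in the fit (adjusted p = 0.0747), neither called. Against 100 µM it was 0.54 (edgeR adjusted p = 0.000132) and within set B 0.49 (edgeR adjusted p = 5.3e-06).

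PDE5A, the cGMP-specific enzyme that sildenafil blocks, lies on chromosome 4 at 119494395 to 119628991 (minus strand). Its control libraries stood at 1.53, 1.27 and 1.34 CPM, its 100 µM libraries at 1.5, 1.04 and 1.81 CPM and its 1000 µM libraries at 1.58, 1.06 and 1.20 CPM. These groups overlapped. The log2 fold change at 1000 µM was -0.10 with a 95% interval of -0.54 to 0.35, from 29 to 62 counts per library at that dose, and the joint test gave an edgeR adjusted p = 0.0616.

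**Figure D3:**
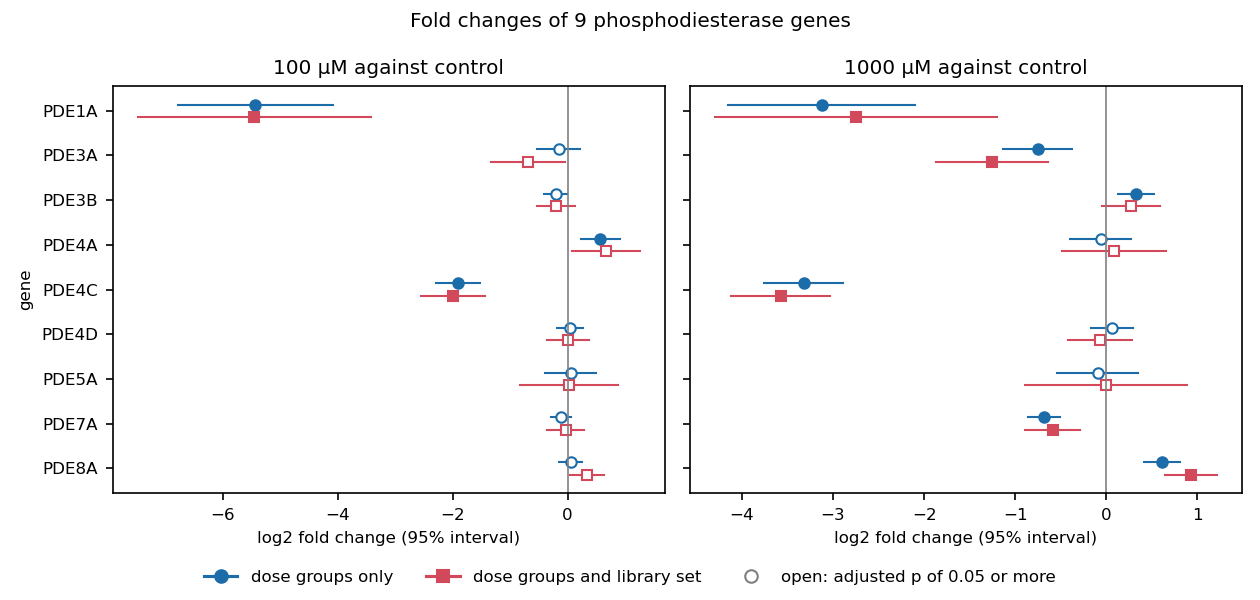
Log2 fold changes of the 9 phosphodiesterase genes against control at 100 µM (left) and 1000 µM (right), with 95% intervals as lines. Circles are from the fit on dose groups and squares from the fit with the library set as a further term. Filled symbols have an adjusted p under 0.05, and PDE4C is at -3.32 and -3.57 at 1000 µM.

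Between the 2 highest doses, 6 of 9 genes differed, 2 higher and 4 lower at 1000 µM, beside 44% of all features, 21.8% higher and 22.3% lower. Without PDE1A the count was 6 of 8. Within set B, 8 of 9 differed between 1000 and 10 µM, 3 higher and 5 lower, beside 69.1% of 17090 features, 34.1% higher and 35% lower. Without PDE1A it was 7 of 8, 3 higher and 4 lower. PDE3B, PDE4D and PDE8A were the higher genes there. PDE1A, PDE3A, PDE4A, PDE4C and PDE7A were the lower genes. PDE4A (-0.34) lost its call there without 10 µM replicate 2 (-0.31, adjusted p = 0.0537), without 1000 µM replicate 2 (-0.24, adjusted p = 0.159) and with DESeq2 (adjusted p = 0.0773). PDE4D lost its call without 10 µM replicate 1 (adjusted p = 0.0754) or 2 (adjusted p = 0.107), or without 1000 µM replicate 2 (0.12, adjusted p = 0.25).

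Divided by exonic length (GENCODE 29), PDE8A was the most abundant phosphodiesterase transcript in control, at 8.08 ± 0.547 CPM per kb (SD, n = 3). PDE3B followed at 5.12 ± 0.740 and PDE7A at 3.57 ± 0.341 CPM per kb, and the ranges of these genes did not overlap. PDE4D (1.60 ± 0.133 CPM per kb) and PDE4C (1.43 ± 0.246 CPM per kb) overlapped and stood next among the 9 genes. PDE4A was at 0.958 ± 0.260, PDE3A at 0.234 ± 0.0352, PDE5A at 0.141 ± 0.0135 and PDE1A at 0.0971 ± 0.0166 CPM per kb, with no overlap between neighbours. At 1000 µM PDE8A stood at 12.3 ± 1.06, PDE3B at 6.41 ± 0.686 and PDE7A at 2.22 ± 0.0265 CPM per kb. PDE4C, at 0.141 ± 0.0232 CPM per kb, had come to overlap PDE3A (0.139 ± 0.0158), which in turn overlapped PDE5A (0.131 ± 0.0275).

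The summed length-scaled level of the 9 genes was 21.2 ± 1.28 CPM per kb (SD, n = 3) in control and 24.0 ± 0.364 CPM per kb at 1000 µM. The control libraries ran from 20.4 to 22.7 and the 1000 µM libraries from 23.54 to 24.22, without overlap. PDE8A and PDE3B together made up 62.1% ± 2.24 of that sum in control, 64.3% ± 1.60 at 100 µM and 78.1% ± 0.834 at 1000 µM.

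**Figure D4:**
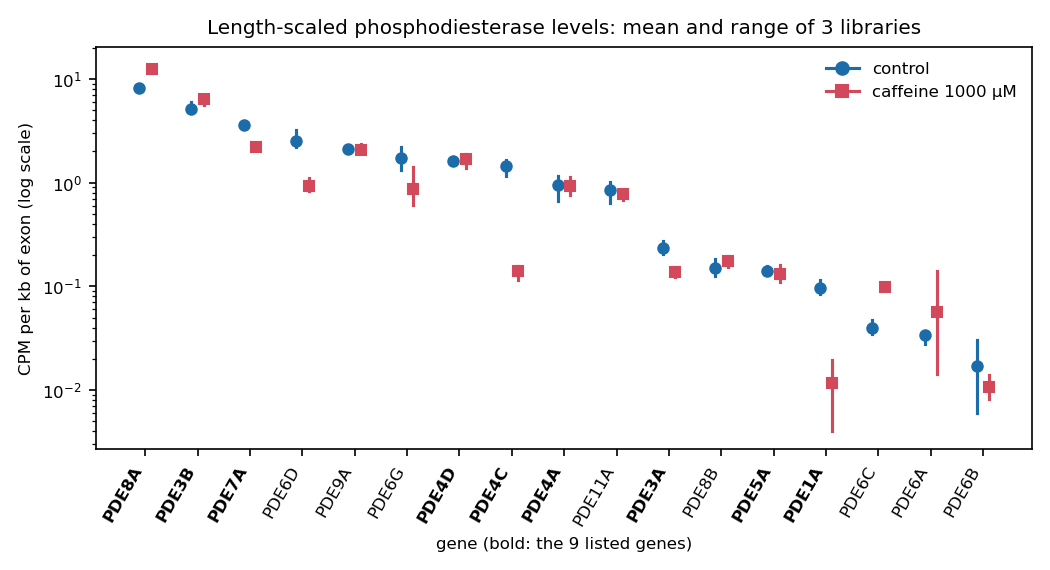
Length-scaled level (CPM per kb of exon, log axis) of 17 phosphodiesterase genes detected in every control and 1000 µM library, ordered by their control level. Points are means and lines the range of 3 libraries, with the 9 genes described here in bold. PDE8A is highest in both groups, and PDE4C falls from 1.43 to 0.141 CPM per kb.

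Of 14 further phosphodiesterase genes, 12 were in the table and 7 passed the filter, and the 5 that did not pass never exceeded 4 counts. At 1000 µM 2 of the 7 were called lower, beside 29.1% of all features, and at 100 µM 1 was, beside 22.9%. PDE6C, called higher at 1000 µM, is set apart because it passed the filter only through the 3 libraries at that dose. PDE6D, which despite its name encodes a carrier of prenylated proteins, fell from 7.22 ± 1.59 to 2.64 ± 0.439 CPM (SD, n = 3) at 1000 µM, or -1.45 on the log2 scale (edgeR adjusted p = 2.55e-06). PDE6G, the inhibitory subunit of the rod enzyme, had -1.02 (edgeR adjusted p = 0.00307). Both stayed called with the set term, at -1.35 and -1.15. PDE6C, the cone catalytic subunit, held 4, 6 and 3 counts in control and 13, 9 and 8 at 1000 µM, and its log2 fold change with the set term was 0.10 (adjusted p = 0.965). Of the catalytic genes at a level near the 9, PDE9A (-0.03), PDE11A (-0.14) and PDE8B, the paralogue of PDE8A (0.24, and -0.36 with the set term), did not pass the test at 1000 µM; they were named after their values were seen.

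Among the enzymes that make cyclic nucleotides, 4 of 18 cyclase genes passed the filter, of which 1 was higher and 2 were lower at 1000 µM, beside 28.5% and 29.1% of all features. NPR2, a natriuretic peptide receptor with guanylyl cyclase activity, fell by 0.82 on the log2 scale (edgeR adjusted p = 5.81e-05). The adenylyl cyclase ADCY6 was higher by 0.65 (edgeR adjusted p = 0.00195) and ADCY9 had a log2 fold change of -0.42 (edgeR adjusted p = 0.00305). Of these, the set term left only NPR2 called (-1.02), with ADCY6 at adjusted p = 0.132 and ADCY9 at 0.225.

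Of 14 effector genes 8 were tested, and 2 were higher and 3 lower at 1000 µM, 5 of 8 beside 57.6% of all features called at that dose. RAPGEF4, which encodes EPAC2, is 1 of the 3 lower genes but was at or above the filter's 0.292 CPM in no library at 1000 µM, so it passed only through groups where it was higher. Without it 2 of 7 were higher and 2 lower. RAPGEF4 was at 0.610 ± 0.0636 CPM (SD, n = 3) in control and 0.0958 ± 0.0523 CPM at 1000 µM, and no test of it is given. RAPGEF3, which encodes EPAC1, went from 6.85 ± 1.73 to 2.58 ± 0.480 CPM (SD, n = 3), with a log2 fold change of -1.41 (edgeR adjusted p = 2.73e-06). It was as low at 100 µM, at 2.46 ± 0.305 CPM. PRKAR2A, a regulatory subunit of protein kinase A, had 0.53 (edgeR adjusted p = 1.5e-05). RAPGEF3 stayed called with the set term, at -1.68, and PRKAR2A did not (adjusted p = 0.0603).

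All 9 genes for partners and anchors of phosphodiesterases were tested, with 2 higher and 4 lower at 1000 µM, again beside 57.6% of all features called. ARRB1, an arrestin that brings PDE4D to activated receptors, had a log2 fold change of 1.00 (edgeR adjusted p = 7.76e-07). The anchoring protein gene AKAP9 had 0.76 (edgeR adjusted p = 2.61e-05). Both stayed called with the set term. Of the 2 cyclic nucleotide exporters, ABCC5 rose by 1.31 (edgeR adjusted p = 1.93e-09) and by 1.28 with the set term, and ABCC4 had 0.11 (adjusted p = 0.545).

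Of 15 genes known to respond to cAMP 13 were tested. At 1000 µM 6 were higher and 5 lower, beside 28.5% and 29.1% of all features, with a median log2 fold change of -0.43 beside -0.01 for all features. With the set term 5 were higher and 3 lower, beside 18.2% and 19.8%. IGFBP1, a secreted binding protein of insulin-like growth factors, went from 104 ± 9.52 to 3310 ± 655 CPM (SD, n = 3), or 4.99 higher on the log2 scale (edgeR adjusted p = 1.79e-14). G6PC1, the last enzyme of glucose output, went from 0.487 ± 0.115 to 8.52 ± 0.861 CPM, or 4.14 higher on the log2 scale (edgeR adjusted p = 1.55e-11). PPARGC1A, a coactivator of gluconeogenic genes, rose by 2 on the log2 scale (edgeR adjusted p = 7.82e-11). All 3 stayed called with the set term, at 4.55, 3.88 and 2.18.

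At 100 µM, where PDE4C and PDE1A had already fallen, 1 cAMP-responsive gene was higher and 6 were lower, beside 23.6% and 22.9% of all features. IGFBP1 was at 220 ± 2.43 CPM (log2 fold change 1.08, edgeR adjusted p = 2.48e-06), while G6PC1 (0.01) and PPARGC1A (-0.09) did not pass the test. With the set term none was higher and 3 were lower at this dose, beside 9.14% and 8.21%. Of the 8 hepatocyte markers, 2 were higher and 4 lower at 1000 µM and 2 were not called, beside 28.5% and 29.1% of all features. The counts with the set term were 2 higher and 5 lower, beside 18.2% and 19.8%. FGB, AFP and ALB, which encode secreted hepatocyte proteins, had log2 fold changes of -1.33, -1.40 and -0.98 at 1000 µM, and -1.11, -1.39 and -1.03 with the set term. The higher markers were APOB, at 0.71 (edgeR adjusted p = 6.7e-05), and TTR, at 0.47 (edgeR adjusted p = 0.00328), both named after their values were seen. Of the other cell types' markers 3 were tested, 1 higher and 1 lower in either fit: PDGFRB rose by 2.50 (edgeR adjusted p = 7.51e-11) and CD68 had -0.80 (edgeR adjusted p = 0.0163). The part of these marker changes in the phosphodiesterase results was not tested.

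**Figure D5:**
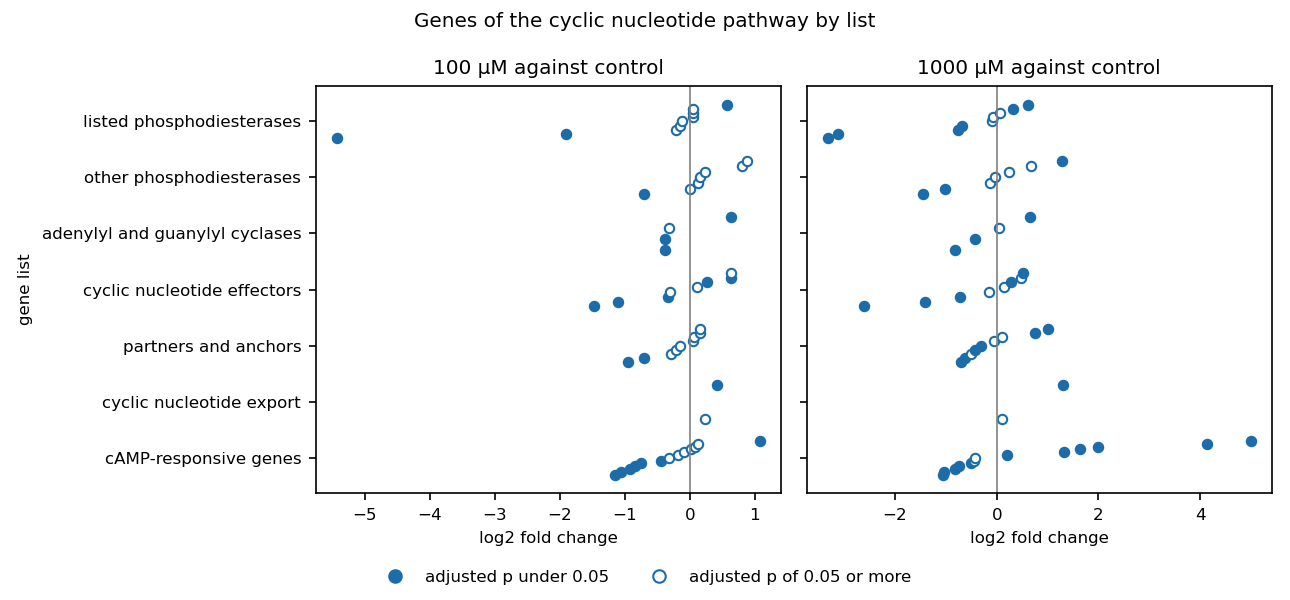
Log2 fold changes against control at 100 µM (left) and 1000 µM (right) of the tested genes in 7 lists of the cyclic nucleotide pathway, 1 point a gene, with separate axis ranges. Filled points have an adjusted p under 0.05. The listed phosphodiesterases reach -5.43 (PDE1A, 100 µM), and the highest cAMP-responsive gene is IGFBP1 at 4.99.

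Across the 21 libraries, the genes whose log2 CPM followed PDE4C most closely, of 11108 named genes averaging 5 CPM or more, were HPAT5 (Pearson r = 0.989), RAB11FIP4 (r = 0.988) and SLC25A42 (r = 0.986). HPAT5, a noncoding RNA gene, went from 19.0 ± 0.936 CPM (SD, n = 3) in control to 5.63 ± 1.82 at 100 µM and 2.66 ± 0.710 at 1000 µM. RAB11FIP4, an effector of Rab11 in endosome recycling, went from 139 ± 13.5 to 63.6 ± 9.34 and 41.9 ± 0.825 CPM. For PDE1A, of 11109 genes, the closest were ETFDH (r = 0.961), FAM161B (r = 0.944) and UBXN8 (r = 0.942). ETFDH, a mitochondrial electron carrier enzyme, was at 45.1 ± 3.73 CPM in control, 18.5 ± 0.994 at 100 µM and 24.4 ± 1.33 at 1000 µM. These correlations describe libraries that share dose groups and library sets.

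Several genes overlap others in the annotation, and reads in shared exons could be counted for either. AC008397.2, on the same strand as PDE4C, had log2 fold changes of -0.99 at 100 µM and -1.44 at 1000 µM (edgeR adjusted p = 0.0164 and 0.000942), from at most 200 counts. CDC37, opposite PDE4A, was at 163 CPM in control, far above PDE4A, with -0.27 at 100 µM (adjusted p = 0.0776) and -0.60 at 1000 µM (edgeR adjusted p = 0.000302). AC112777.1, a processed pseudogene within PDE3A, stood at 4.84 CPM in control, above PDE3A itself, with 1.36 at 100 µM and -0.82 at 1000 µM, both called. MTFR1, opposite PDE7A, had 0.25 at 100 µM (edgeR adjusted p = 0.0248) and 0.08 at 1000 µM (adjusted p = 0.475). The share of reads common to these pairs was not tested.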

How the data were processed

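RNA of 21 HepG2 libraries (7 groups of 3) was sequenced. The authors deposited raw read counts per feature, whole numbers without normalization, from 23502519 to 44815552 per library. The submitters' processing notes name HISAT2, DESeq2 and the build GRCh38 without saying what each did. The counting tool, annotation and use of strand are not given in the sources used here. A further 21 columns of per-sample values match no sample here and were not used. Low counts were removed by filterByExpr over the groups (17951 features kept), and the rest scaled by TMM and tested in 1 fit over all libraries with edgeR 4.0.16 (R 4.3.3) and its quasi-likelihood F-test, with Benjamini-Hochberg adjustment over all features tested. A standard error is the absolute log2 fold change over the square root of F. The fits were also run on simulated counts that held no library set effect, so that run says nothing about the sets.

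Of 32937 features with Ensembl identifiers, 32264 matched a symbol. GENCODE 29 gave gene lengths and positions, RefSeq (GRCh38.p14) the promoters; the annotation behind the deposited counts may be another. Library sets came from average-linkage clustering of 13 mitochondrial mRNAs, at the highest mean silhouette. Intervals of fold changes in the fits reflect the spread between replicates. Those of count shares and of the pooled PDE1A ratio reflect counting error alone, and PCR copies could not be told from separate molecules. No replicate pair agreed within sampling noise (chi-square per gene at least 3.39 over 21 pairs). The mean correlation of same-numbered libraries ran from -0.304 to 0.238 over 21 pairs of groups. P-values are 2-sided.

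The genes and lists were chosen with earlier results of these data known. Each of the 9 listed phosphodiesterases found is described. Of each other list up to 3 genes called at 1000 µM with the smallest p are named. For the partners and anchors, 1 result that this rule selects is not reported here. For the 2 phosphodiesterases with the smallest joint p, the 3 genes with the highest Pearson r over log2 CPM (prior count 2) are named. Alternatives were DESeq2 size factors, DESeq2 1.42.0, no filter, the replicate number as a block, the library set as a term, only the groups compared, and each library left out in turn.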

Additional observations from a re-analysis of the deposited data

How the results depend on the processing

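The numbers of phosphodiesterase genes called stayed within 1.5 times the main count under the alternatives run, apart from 3 settings. At 0.01 µM, 1 gene (PDE3B) was called with the library set as a term, against 0. At 10 µM, 1 gene (PDE1A) was called with only the groups compared, against 0. Within set B, 5 were called without 10 µM replicate 2, against 8, where PDE1A no longer passed the filter. Leaving out each library in turn gave 0 to 0 calls at 0.01, 0.1, 1 and 10 µM, and 3 to 4 at 100 µM. It gave 6 to 6 at the highest dose, and likewise against 100 µM, 7 to 8 in the joint test and 5 to 7 within set B. The fourth gene at 100 µM, called without control replicate 2 or without 1000 µM replicate 3, was PDE3B. With the replicate number as a block the counts were 0, 0, 0, 0, 3, 6 (1000 µM), 6 (1000 against 100 µM), 8 (joint) and 8 (within set B), and the numbers do not pair the samples: the mean correlation of same-numbered libraries ran from -0.304 to 0.238, over 0.1 in 6 of 21 pairs of groups. Over the calls of single genes, 459 values kept their direction and side of the threshold, 16 kept direction but lost the call, and 0 reversed. The cause was not tested. PDE4C kept its calls in all alternatives run, between -2.16 and -1.79 at 100 µM and between -3.57 and -3.20 at 1000 µM. Depth limits PDE1A most, with 1 count in all at 100 µM.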

Other observations

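At the lowest doses, 3 of the 9 phosphodiesterase genes had all 9 libraries at 0.01, 0.1 and 1 µM below all 3 controls, although none was called at these doses without the set term. With the library set as a term, PDE3B was called at 0.01 µM (log2 fold change -0.31, edgeR adjusted p = 0.0499). Of all features tested, 3.6% had this pattern. PDE4D, a cAMP-specific enzyme, ran from 19.1 to 23.6 CPM with a median of 20.9, against 24.3 to 28.5 CPM in control. PDE3B, the insulin-activated enzyme, ran from 45.6 to 52.7 CPM with a median of 50.5, against 54.5 to 69.9 CPM. PDE5A, the cGMP-specific enzyme, ran from 0.813 to 1.24 CPM with a median of 1.02, against 1.27 to 1.53 CPM. The 3 doses share the same 3 control libraries, so they are not separate evidence of a difference. This pattern was noticed in the data.

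Among the 36 pairs of phosphodiesterase genes, the Pearson r of log2 CPM over the 21 libraries ran from -0.82 (PDE4C with PDE8A) to 0.83 (PDE3A with PDE7A). The other pairs at the ends were PDE7A with PDE8A (-0.78) and PDE4C with PDE7A (0.81). The median over pairs was -0.12. The points share dose groups and library sets.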
